A study of Malus domestica with 5 samples.

Results

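The miR172 family of apple (Malus domestica) has 15 named members in the deposited count table, mdm-miR172a to mdm-miR172o, out of 207 named apple miRNAs and 430043 features in all. They were taken by name, without use of their counts. Several members had exactly the same counts in every library, so the 15 members form 5 distinct profiles: mdm-miR172d to mdm-miR172h (5 members), mdm-miR172i to mdm-miR172k (3 members), mdm-miR172m to mdm-miR172o (3 members), mdm-miR172a to mdm-miR172c (3 members) and mdm-miR172l (1 member), written below without the species prefix. Members within a profile cannot be told apart here, and each profile was counted once. Buds of 2 groups were sequenced as small RNA libraries: 3 libraries of reproductive phase buds, and 2 libraries of juvenile phase buds, whose tissue label describes a sucker of juvenile character growing from the base of the stem. The sources used here do not give cultivar, tree age or season. Phase and place on the tree differ together between the groups and cannot be told apart, and the table holds small RNAs alone, so the bud tissue could not be checked against marker genes.

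miR172 is a short regulatory RNA, conserved among flowering plants, that pairs with messenger RNAs of the APETALA2 (AP2) class, a group of transcription factors that hold back flowering and also shape the flower. In Arabidopsis, miR172 acts downstream of miR156 in the age pathway. miR156 is high in young plants and represses SPL transcription factors, and some SPL proteins activate genes for miR172. The comparison of the 2 bud types asks which small RNAs differ on either side of the passage from the juvenile to the flowering phase.

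The sums of all counts ran from 122455352 to 140173167 in the reproductive libraries and from 85087230 to 97283456 in the juvenile ones. A read that matches several features may have been counted under each, so these sums may differ from read numbers. Counts were scaled by TMM, a method that sets libraries level over the bulk of features, and are given below as normalised counts. Within the juvenile group the normalised miR172 family sum had a coefficient of variation of 41.2%, against a median of 17.2% over the 37 miRNA families tested, and 8 of those families were higher. Within the reproductive group it had one of 26.9%, against a median of 15.6% over the same families, and 7 were higher.

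The most abundant profile, miR172d to miR172h, carried most of the family in every library. Its raw counts were 347, 505 and 506 in reproductive libraries 1, 2 and 3, and 161 and 65 in juvenile libraries 1 and 2. After scaling these were 209, 342 and 322 normalised counts in the reproductive libraries, and 274 and 147 in the juvenile ones. The groups overlapped, since juvenile library 1 lay above reproductive library 1. The means were 291 ± 72.2 (SD, n = 3) in reproductive and 210.5 ± 89.5 (SD, n = 2) in juvenile libraries, and the log2 fold change of 0.43 (SE 0.22) did not pass edgeR's quasi-likelihood test (adjusted p = 0.131). Among the 84 distinct profiles of named miRNAs, it ranked 24, 22 and 21 by count in the reproductive libraries, and 24 and 26 in the juvenile ones.

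The next profile, miR172i to miR172k, was higher in the reproductive buds. Raw counts were 213, 331 and 338 in reproductive libraries 1, 2 and 3, and 62 and 26 in juvenile libraries 1 and 2. The normalised counts were 128, 224 and 215 in the reproductive libraries, and 105 and 58.9 in the juvenile ones. Every reproductive library lay above both juvenile ones, although reproductive library 1 was close to juvenile library 1. Groups that do not overlap, with reproductive libraries higher, were found for 36.1% of all features tested. The profile rose 2.22-fold, with means of 189 ± 53.2 (SD, n = 3) in reproductive and 82.1 ± 32.9 (SD, n = 2) in juvenile libraries (edgeR log2 fold change 1.15, SE 0.27, adjusted p = 0.00243 over all features). The call was lost without juvenile library 2 (log2 fold change 0.84, edgeR adjusted p = 0.0759). Fitted on named miRNAs alone, with a common biological coefficient of variation of 0.174 against 0.0758 over all features, the profile was still called (log2 fold change 1.18, edgeR adjusted p = 0.000714), an alternative chosen after seeing the data.

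**Figure D1:**
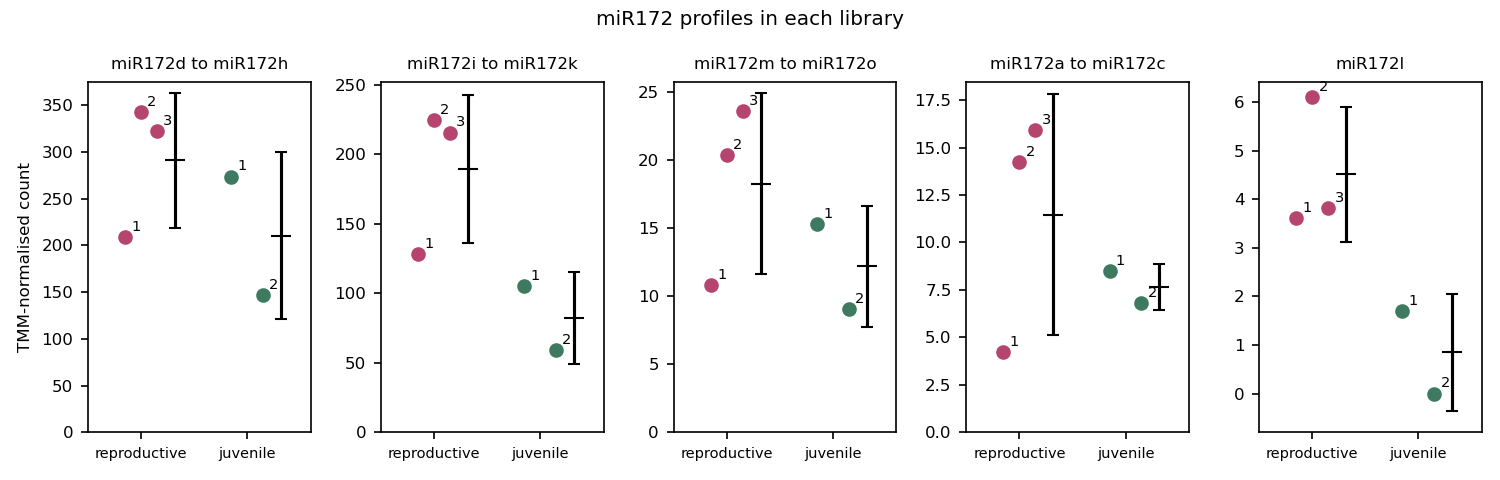
TMM-normalised counts (linear axes) of the 5 miR172 profiles in each library, reproductive buds left and juvenile buds right. Points are libraries with their replicate numbers, and the bar beside each group is the mean ± SD (n = 3 and n = 2). Reproductive library 1 is the lowest of its group and juvenile library 2 the lower of its pair in every panel, and the groups are apart for miR172i to miR172k and miR172l only.

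The 3 remaining profiles were rare. miR172m to miR172o had 18, 30 and 37 raw counts in the reproductive libraries, and 9 and 4 in the juvenile ones. Its normalised counts of 10.8, 20.3 and 23.6 in the reproductive libraries overlapped those of 15.3 and 9.06 in the juvenile ones (log2 fold change 0.52, SE 0.48, edgeR adjusted p = 0.392). miR172a to miR172c had 7, 21 and 25 raw counts in the reproductive libraries, and 5 and 3 in the juvenile ones. Its normalised counts of 4.21, 14.2 and 15.9 in the reproductive libraries lay on both sides of the juvenile values of 8.50 and 6.79 (log2 fold change 0.53, SE 0.66, edgeR adjusted p = 0.527). Both profiles entered the test only through their reproductive libraries, the juvenile counts being below the minimum of 10. With 1 library left out, the log2 fold change ran from 0.24 (without juvenile library 2) to 0.99 (without juvenile library 1) for miR172m to miR172o, and from 0.40 (without juvenile library 2) to 0.96 (without reproductive library 1) for miR172a to miR172c, none past the threshold in edgeR. The rarest member, miR172l, had 6, 9 and 6 raw counts in the reproductive libraries, and 1 and 0 in the juvenile ones, and was below the count minimum for the test. A count of 0 in juvenile library 2 allows up to 3 counts, or 6.79 normalised counts, which is above all 3 reproductive values. Added up over libraries, 21 counts against 1 give a ratio of 4.59 after scaling (exact 95% interval 0.739 to 190.0, counting error only), so a difference in miR172l was not detectable at this depth.

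Of the 4 profiles tested, 1 was higher and none lower in edgeR, where 21.1% of all 282619 features tested were called higher and 24.3% lower. A share of 1 in 4 is close to that background. The median log2 fold change was 0.53 over the 4 miR172 profiles, against -0.15 over the 64 tested profiles of named miRNAs and 0.08 over all features. These values are a description, as the rare profiles were tested only because of their reproductive counts.

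Taken as 1 family, with each profile added once, miR172 had 591, 896 and 912 raw counts in the reproductive libraries, and 238 and 98 in the juvenile ones. The normalised sums were 355, 607 and 581 in the reproductive libraries, and 405 and 222 in the juvenile ones. Juvenile library 1 lay above reproductive library 1, so the groups overlapped. The family sum passed the edgeR test over families (log2 fold change 0.70, SE 0.22, adjusted p = 0.00369), in which 13.5% of 37 families were higher and 37.8% lower. The call was lost without juvenile library 2 (log2 fold change 0.35, edgeR adjusted p = 0.397), reproductive library 2 (0.57, edgeR adjusted p = 0.0884) or reproductive library 3 (0.63, edgeR adjusted p = 0.147). Without juvenile library 1 the log2 fold change was 1.21, so the size of the difference depended on which juvenile library was set against the reproductive ones. By count, the family ranked 16, 13 and 13 among 44 families in the reproductive libraries, and 18 in both juvenile ones.

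For the 2 abundant profiles, the share in the family varied less between the libraries of a group than the level of the family did. The miR172i to miR172k profile made up 36.0%, 36.9% and 37.1% of the family in reproductive libraries 1, 2 and 3, and 26.1% and 26.5% in juvenile libraries 1 and 2. The share of miR172d to miR172h was 58.7%, 56.4% and 55.5% in the reproductive libraries, and 67.6% and 66.3% in the juvenile ones. For both profiles the groups were apart, and the libraries of each group lay closer to each other than to any library of the other group. These shares do not depend on how libraries are scaled.

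The difference in mean share was 10.4 percentage points for miR172i to miR172k, higher in 3 of 3 reproductive libraries than in either juvenile one (exact permutation test, two-sided, p = 0.1, which is the smallest value 10 splits allow, and 0.167 after Benjamini-Hochberg adjustment over the 5 profiles). For miR172d to miR172h it was -10.1 percentage points, with the same exact permutation p of 0.1 (adjusted 0.167). As shares of 1 total the changes of these profiles are bound to each other. Exact 95% binomial intervals for the miR172i to miR172k share, which cover counting error only, were 32.2% to 40.1%, 33.8% to 40.2% and 33.9% to 40.3% in the reproductive libraries, and 20.6% to 32.1% and 18.1% to 36.4% in the juvenile ones. The wide interval of juvenile library 2, with 98 family counts, overlapped those of the reproductive libraries, and that of juvenile library 1 ended just below them. As a share of miR172i to miR172k and miR172d to miR172h alone, the interval of 22.0% to 34.2% in juvenile library 1 overlapped that of 34.0% to 42.2% in reproductive library 1.

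**Figure D2:**
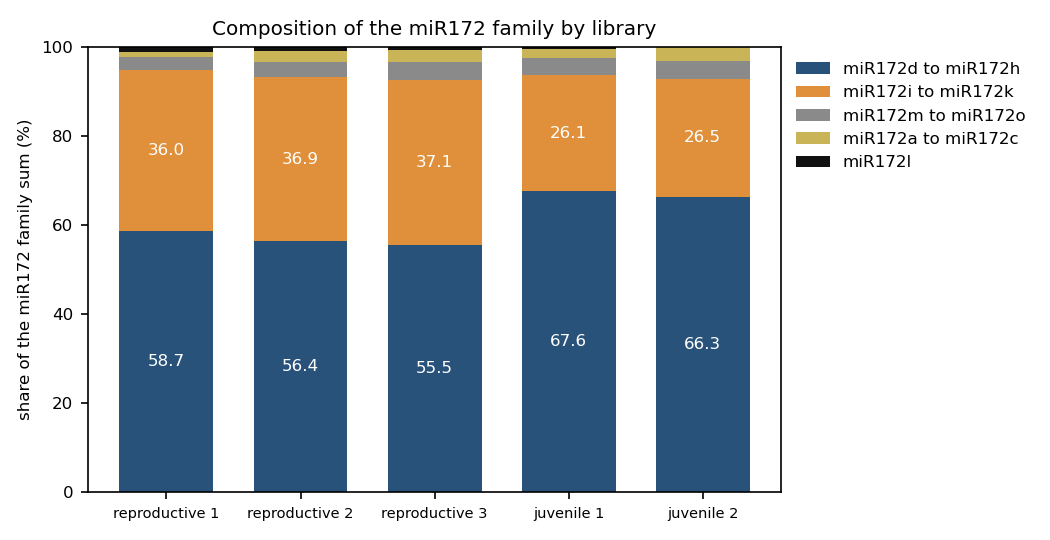
Share (%) of each profile in the miR172 family sum of its library, each profile added once, with 3 reproductive libraries left and 2 juvenile libraries right. The miR172i to miR172k part is 36.0% to 37.1% in reproductive and 26.1% to 26.5% in juvenile libraries.

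The rare profiles kept small shares in both groups. miR172m to miR172o made up 3.05% to 4.06% of the family in reproductive and 3.78% to 4.08% in juvenile libraries. miR172a to miR172c made up 1.18% to 2.74% in reproductive and 2.10% to 3.06% in juvenile libraries, and miR172l 0.658% to 1.02% in reproductive and 0% to 0.420% in juvenile libraries.

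Within a library, the quotient of miR172i to miR172k over miR172d to miR172h was 0.614, 0.655 and 0.668 in the reproductive libraries, and 0.385 and 0.400 in the juvenile ones. Its mean was 1.65 times as high in reproductive as in juvenile libraries (exact permutation test, two-sided, p = 0.1, adjusted 0.2 over 12 quotients), and it was chosen after its values were seen. In edgeR's test of whether a profile moves differently from the rest of its family, which carries the spread between libraries of each profile, no miR172 profile passed. miR172i to miR172k had a log2 change of 0.48 relative to the family (edgeR adjusted p = 0.529) and miR172d to miR172h one of -0.25 (edgeR adjusted p = 0.895). In the same test 21.4% of 42 profiles from 15 families passed. At an unadjusted p under 0.05, 0 of the 4 miR172 profiles passed either. Whether reads are shared between profiles, as mismatches could allow, was not tested.

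How libraries are scaled moved the log2 fold changes of the family sum and of the 4 tested profiles, which stayed above 0 under each scaling. The median log2 fold change of all features was 0.08 under TMM, 0.06 in DESeq2, 0.67 with TMM over named miRNAs and 1.19 when libraries were scaled on the sums of counts alone. The miR172i to miR172k profile stood at 1.15, 1.18, 1.74 and 2.27 under these scalings in that order, past the threshold in each (adjusted p from 9.55e-06 in edgeR under the sums to 0.0253 in DESeq2). Set against the median of all features, its log2 fold change was 1.08, 1.12, 1.08 and 1.08. The family sum stood at 0.70, 0.69, 1.28 and 1.80, also past the threshold in each, with the highest adjusted p of 0.0496 in DESeq2. miR172d to miR172h passed with TMM over named miRNAs (1.01, edgeR adjusted p = 0.00367) and under the sums (1.54, edgeR adjusted p = 9.82e-05). Set against the median of all features, it stood at 0.35 under both. The rare profiles passed only under the sums, where that median was 1.19. They were tested only because of their reproductive counts, so these calls are a description.

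**Figure D3:**
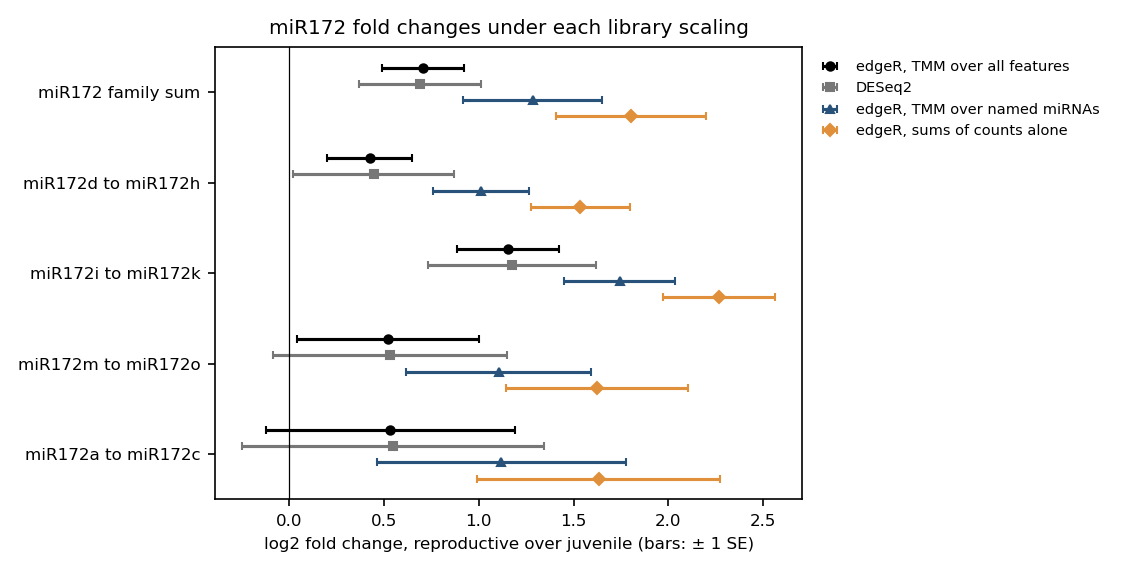
Log2 fold changes (reproductive over juvenile, ± 1 SE, linear axis) of the miR172 family sum and its 4 tested profiles under each library scaling. All values lie above 0, those of the sums alone are the highest, and miR172i to miR172k lies above miR172d to miR172h under each scaling.

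The share of miR172 among the counts of all named miRNAs, which needs no scaling, was 0.0808%, 0.169% and 0.175% in the reproductive libraries, and 0.0608% and 0.0277% in the juvenile ones. All reproductive libraries lay above the juvenile ones (mean 0.142% against 0.0443%, two-sided exact permutation p = 0.2). That total is dominated by miR166, a family that targets HD-ZIP III genes of leaf polarity, which held 46.6% of it in reproductive and 63.4% in juvenile libraries on average. With miR166 taken out of the total, the miR172 share was 0.167%, 0.307% and 0.308% in the reproductive libraries, and 0.162% and 0.0776% in the juvenile ones. Reproductive library 1 then lay just above juvenile library 1. How many other families had shares apart between the groups was not computed, and the normalised miR172 sums overlapped.

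Set against miR156, the upstream miRNA of the age pathway, all 5 profiles had higher mean quotients in the reproductive libraries. The groups did not overlap in any of the 5. These quotients share 1 denominator, and the groups were also apart for the normalised miR156 sum itself, which was lower in the reproductive libraries. The normalised counts of miR172a to miR172c, miR172d to miR172h and miR172m to miR172o overlapped between the groups. The 5 quotients are therefore not separate results, and the share of other features with such a quotient was not computed. The quotient of miR172d to miR172h over the miR156 family was 2.67, 2.08 and 2.25 in the reproductive libraries, and 0.634 and 0.644 in the juvenile ones. That of miR172i to miR172k was 1.64, 1.36 and 1.50 in the reproductive libraries, and 0.244 and 0.257 in the juvenile ones. The rare miR172m to miR172o had quotients of 0.138, 0.123 and 0.164 in the reproductive libraries, and 0.0354 and 0.0396 in the juvenile ones. In mean quotient the reproductive libraries were 3.65-fold, 5.99-fold and 3.79-fold higher for these profiles in turn, each with the smallest two-sided exact permutation p of 0.1 (adjusted 0.2 over 12 quotients). The rarer miR172a to miR172c had quotients of 0.0538, 0.0864 and 0.111 in the reproductive libraries, and 0.0197 and 0.0297 in the juvenile ones (two-sided exact permutation p = 0.2, adjusted 0.267). For miR172l they were 0.0462, 0.0370 and 0.0267 in the reproductive libraries, and 0.00394 and 0 in the juvenile ones, where they rest on 1 count. Both families were higher in juvenile library 1 than in juvenile library 2, with normalised counts of 405 and 222 for miR172 and of 432 and 229 for miR156.

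**Figure D4:**
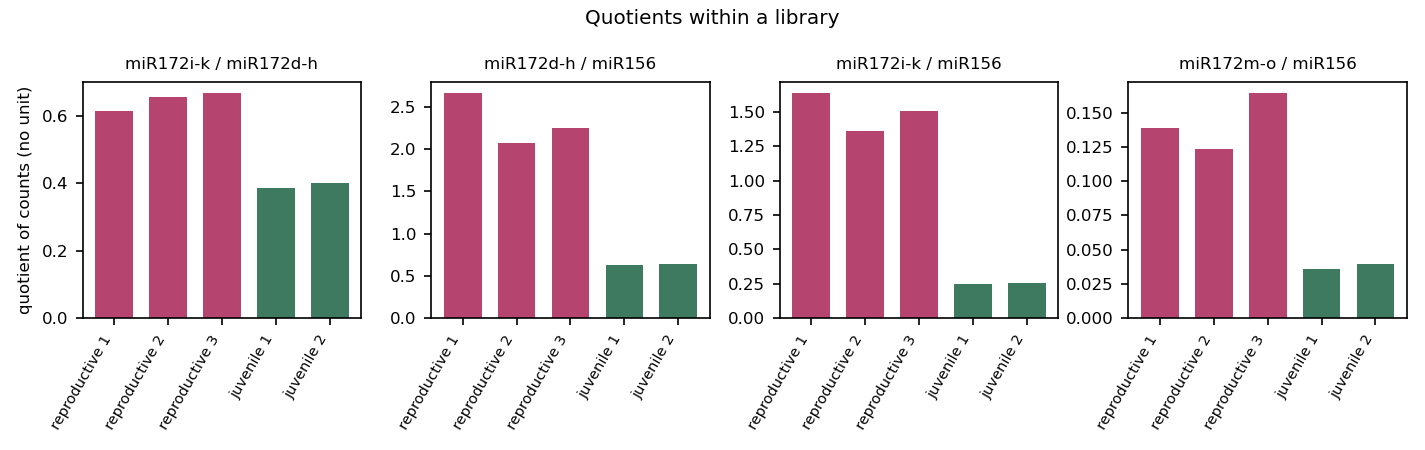
Quotients of raw counts within each library (no unit, axes from 0): miR172i to miR172k over miR172d to miR172h, and 3 miR172 profiles over the miR156 family sum. The 3 reproductive libraries (left) lie above the 2 juvenile libraries (right) in each panel.

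Other miRNAs known to act in phase change or flowering time were read out from the same fits. The list held 8 families, of which 7 were tested, with 0 higher and 2 lower in edgeR, against 13.5% and 37.8% of all 37 families. By distinct profile, 4 of 13 tested were higher and 4 lower, against 21.1% and 24.3% of all features. miR156 fell 2.59-fold under TMM (log2 fold change -1.37, edgeR adjusted p = 1.72e-06), with normalised sums of 78.1, 165 and 143 in the reproductive libraries, and 432 and 229 in the juvenile ones. Under the sums of counts its log2 fold change was -0.27 (edgeR adjusted p = 0.591), and with TMM over named miRNAs -0.79 (edgeR adjusted p = 0.131). miR159, a regulator of GAMYB transcription factors, fell under TMM (log2 fold change -0.72, edgeR adjusted p = 0.000391). The sums turned the log2 fold change of miR159 to 0.41 (edgeR adjusted p = 0.007), and with TMM over named miRNAs it was -0.12 (edgeR adjusted p = 0.3). Both miR156 and miR159 were also lower in DESeq2 (DESeq2 adjusted p = 0.000484 and 1.13e-05).

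The other families of the list did not pass as families under TMM. Their log2 fold changes were 0.40 for miR319, which targets TCP genes, 0.00 for miR390, which starts the making of trans-acting siRNAs, and 0.82 for miR399, a phosphate-starvation miRNA linked to flowering time in Arabidopsis. They were 0.66 for miR535, a relative of miR156, and -0.36 for miR169, which targets NF-YA genes. In DESeq2 only miR535 of these passed (log2 fold change 0.65, DESeq2 adjusted p = 0.0302). Under the sums of counts miR319, miR390, miR399 and miR535 passed, and higher (edgeR adjusted p from 0.000337 to 0.0142). The median log2 fold change of all features was 1.19 there. The 4 distinct profiles of the list called higher were miR319a with miR319b, miR319c, miR399i with miR399j, and miR535d. These had log2 fold changes of 0.40, 2.63, 0.89 and 0.62 (edgeR adjusted p = 0.0336, 8.19e-08, 0.044 and 0.00793 over all features). All of miR319, miR399 and miR535 passed, and higher, with TMM over named miRNAs (log2 fold changes 1.00, 1.39 and 1.26, edgeR adjusted p from 0.00131 to 0.0395). The median log2 fold change of all features was 0.67 under that scaling. The share of all families called was computed under TMM over all features only, so these calls have no background. Within libraries, the quotient of miR172 over miR535 was 2.66, 3.69 and 4.13 in the reproductive libraries, and 4.96 and 2.13 in the juvenile ones. That of miR172 over miR399 was 4.22, 8.62 and 10.5 in the reproductive libraries, and 7.21 and 10.9 in the juvenile ones. In both the groups overlapped (two-sided exact permutation p = 1 and 0.7), as they did for miR172 over miR319 (mean quotient 1.27-fold higher in reproductive libraries, exact permutation p = 0.5). The groups were apart for miR172 over miR159 and over miR390, whose mean quotients were 2.64-fold and 1.66-fold higher in the reproductive libraries (exact permutation p = 0.2 for each, adjusted 0.267 over 12 quotients). The groups were also apart for the normalised miR159 sum itself, lower in the reproductive libraries, while the miR172 and miR390 sums overlapped. The share of other families with such a quotient was not computed.

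The named miRNA whose pattern over the 5 libraries came nearest to that of the miR172 family sum was miR396a, a member of the family that targets growth-regulating factors. Nearness was the root mean square difference between log2(normalised count + 1) values after each miRNA's own mean was taken off, over 54 profiles outside miR172, with a median of 0.71. It was 0.12 for miR396a, 0.18 for miR2118a to miR2118c, a family that targets NBS-LRR resistance genes, 0.23 for miR7124a and miR7124b, which share their counts, 0.24 for miR396b and 0.28 for miR477b. miR396a had 232, 354 and 313 normalised counts in the reproductive libraries, and 214 and 140.4 in the juvenile ones. Like the miR172 family, miR396a was lowest in juvenile library 2 and highest in reproductive library 2. As it was picked for nearness over these same libraries, this is not a separate result. Among the miR172 profiles the difference from the family sum was 0.12 for miR172d to miR172h, 0.17 for miR172m to miR172o, 0.23 for miR172i to miR172k, 0.42 for miR172a to miR172c and 0.55 for miR172l. miR172d to miR172h and miR172i to miR172k make up most of the sum they are compared with.

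**Figure D5:**
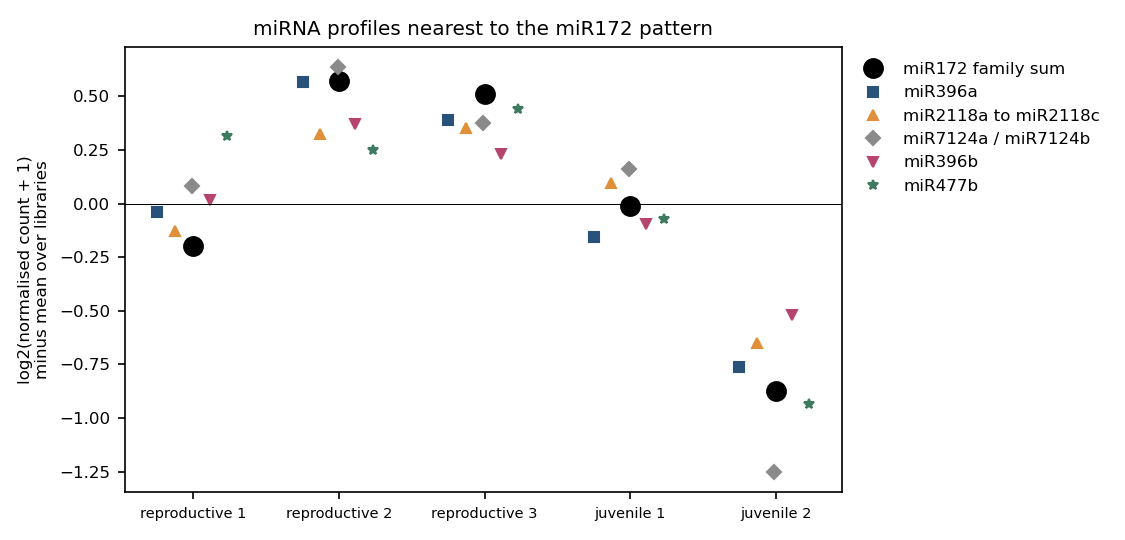
Log2(normalised count + 1) minus its mean over the 5 libraries, for the miR172 family sum and the 5 named miRNA profiles nearest to it, with reproductive libraries left and juvenile libraries right. All 6 are lowest in juvenile library 2, and the miR172 sum stands at 0.57 in reproductive library 2 and at -0.87 in juvenile library 2. The 5 profiles were picked for nearness over these same libraries.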

How the data were processed

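Small RNAs of 3 reproductive phase and 2 juvenile phase bud libraries were measured, and the deposited table holds raw whole-number counts per feature, as the authors made them, with no normalization. The submitters' processing notes name the aligner Bowtie 1.1.2, while the sources used here do not give allowed mismatches, the handling of multiply matching reads, the build or read filters. Columns were matched to samples by their names.

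Computations used Python 3.11.15, R 4.3.3, DESeq2 1.42.0, limma 3.58.1 and edgeR 4.0.16. The 282619 features that reached 10 counts in 2 or more libraries were scaled with TMM and tested for group with edgeR's quasi-likelihood test, with p-values adjusted by Benjamini-Hochberg over all features and a threshold of 0.05. Families were formed from names, each distinct profile added once, and tested with the library factors of all features. The within-family test was edgeR's diffSpliceDGE. The standard error is the log2 fold change divided by the square root of F. Scripts were checked on simulated data. Shares and quotients were compared by exact permutation over 10 splits.

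Every miR172 profile, the listed families tested and the 5 nearest profiles are named. The members and lists were chosen with earlier results of these data known. Alternatives were another scaling, DESeq2, other count minimums, every member added, other denominators, leaving out each library and a replicate block. No library repeated another: chi-square per feature ran from 1.94 to 6.63 within groups. No label ties replicates to separate trees, so p-values measure only how these libraries vary, and that spread may be technical.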

Additional observations from a re-analysis of the deposited data

How the results depend on the processing

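In all, 128 of 148 recomputed values were kept. For fold changes this means the same direction and the same side of the threshold. For shares and quotients it means the same direction only, as their permutation p cannot reach the threshold. For numbers of profiles called it means the same number. Scaled on the sums of counts alone, 4 miR172 profiles were called higher, with log2 fold changes of 1.63 for miR172a to miR172c, 1.54 for miR172d to miR172h and 1.62 for miR172m to miR172o. With TMM over named miRNAs 2 were called, miR172d to miR172h standing at 1.01, and with no count minimum also 2, with that profile at 0.47 (edgeR adjusted p = 0.0286). The median log2 fold change of all features was 1.19 under the sums and 0.67 with TMM over named miRNAs. No alternative called a profile lower. The share of all features called was not computed under any alternative, also with 1 library left out, so these numbers of profiles have no background. Leaving out 1 library at a time gave 0 to 2 profiles called higher, log2 fold changes of 0.35 to 1.21 for the family sum, 0.84 to 1.68 for miR172i to miR172k, 0.0845 to 0.98 for miR172d to miR172h, 0.24 to 0.99 for miR172m to miR172o and 0.40 to 0.96 for miR172a to miR172c. The family call ended without juvenile library 2 and without reproductive library 2 or 3 (edgeR adjusted p = 0.397, 0.0884 and 0.147), and miR172d to miR172h was called without juvenile library 1 or reproductive library 1 (edgeR adjusted p = 0.0251 and 0.00262). A fit with 1 juvenile library assumes that it varies like the others. The change of miR172a to miR172c relative to the family turned to 0.072 without juvenile library 2 and to 0.04 without reproductive library 1, over a range of -0.47 to 0.072. Without reproductive library 2 or 3 that profile, and with a minimum of 50 counts both rare profiles, could not be tested. With the replicate number as a block the family sum stood at 0.62 (edgeR adjusted p = 0.13) and miR172i to miR172k was still called. The labels do not say that the numbers pair libraries. Deviations of same-numbered libraries from their group means correlated at -0.12 and -0.03 across features. With 2 juvenile libraries these deviations mirror each other, so the correlations cannot decide whether the numbers pair libraries. The cause of these shifts was not tested. Shares of miR172i to miR172k differed by 10.2 to 10.7 percentage points with any 1 library left out, and by 8.53 with every member added. Depth limits the rare profiles, which had at most 37 counts in a library.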

Other observations

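In the RefSeq gene table of apple (assembly GDT2T_hap1, used for names and neighbours only), 5 of the 15 members have a gene of their name: MIR172B and MIR172C of the rare miR172a to miR172c profile, MIR172D and MIR172G of miR172d to miR172h, and MIR172I of miR172i to miR172k. MIR172D, MIR172G and MIR172I overlap long non-coding RNA genes there (LOC139197432, LOC139194067 and LOC139189230), and MIR172B and MIR172C overlap no other gene. Of all 125 miRNA genes in that table, 38.4% overlap a long non-coding RNA gene. Strand is not given in it. Outside the family, 3 numbered repeats had the same counts as miR172l in every library, and no feature shared the counts of the other 4 profiles. With at most 9 counts of miR172l in a library, such a match need not mean shared reads, which was not tested.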
